A study of Caenorhabditis elegans with 2 samples.

Results

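The genes described here encode the soluble machinery of protein synthesis: translation initiation factors, elongation factors and the aminoacyl-tRNA synthetases of the cytosol and of mitochondria. They were chosen by gene symbol from the Ensembl annotation of the WBcel235 assembly, as protein-coding genes whose symbols begin with eif-, eef-, iff-, ife-, ifg- or inf-, or are of the form aars-1 or aars-2 with any first letter. The rule gave 71 of 19973 nuclear protein-coding genes, of which 32 encode initiation factors, 8 elongation factors, 19 cytosolic and 12 mitochondrial synthetases. Sites of ZFP-3, a nematode protein with zinc fingers, were mapped in Caenorhabditis elegans by chromatin immunoprecipitation and sequencing in 1 group of 2 biological replicates, with no other condition. The animals were whole L4 larvae of strain RW12271, aged 48 h and synchronized by starving L1 larvae after bleaching. Their endogenous zfp-3 gene on chromosome X carried a TY1, EGFP and 3xFLAG insertion made with CRISPR, and an antibody against GFP was used. Whole larvae hold all tissues, so a site used strongly in few cells and one used weakly in many cannot be told apart. A possible control experiment named in the labels was not used here.

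Translation proceeds in stages that these genes divide among them. Initiation factors bring the small ribosomal subunit, the initiator tRNA and the capped mRNA together. Elongation factors then deliver charged tRNAs and move the ribosome along the message. Synthetases join each amino acid to its tRNA, and mitochondria use synthetases of their own or shared ones encoded in the nucleus. Elongation factor eEF1A is among the most abundant proteins of animal cells.

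Binding was read from the authors' conservative list of 2010 peaks, made from both libraries. The signal printed for each peak is the authors' deposited value of its strength. No label names the scale, and signals are therefore set side by side within 1 list. A gene counts as bound if the list had a summit between 1000 bp before its annotated 5′ end and 200 bp after it. Many C. elegans messages are trans-spliced, so the annotated 5′ end is often not the start of transcription. The thresholded list of replicate 1 alone held 931 peaks and that of replicate 2 held 933. Longer ranked lists of each library also hold weak peaks that did not pass the threshold. Read depth is unknown from these lists.

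Elongation factor genes carried ZFP-3 summits more often than the other translation genes did. Of the 71 genes 10 were bound, or 14.1%, against 4.45% of all nuclear protein-coding genes. Of the 8 elongation factor genes 6 were bound (75.0%). Of the 32 initiation factor genes 2 were bound (6.25%), of the 19 cytosolic synthetase genes 1 (5.26%) and of the 12 mitochondrial synthetase genes 1 (8.33%). The shares of the last 3 classes lie near the background. Compartment was taken from the number in the symbol, 1 for cytosolic and 2 for mitochondrial, with aars and vars the other way round and a single gene for an amino acid counted as cytosolic. RefSeq product names state it for part of the genes, so the split of the synthetases is uncertain, while their total of 2 of 31 does not depend on it. The classes were compared by these counts with no test, since the genes were chosen with earlier results of these data known. An untagged strain was not analysed here, so the part of sites that any tagged protein would give was not tested.

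**Figure D1:**
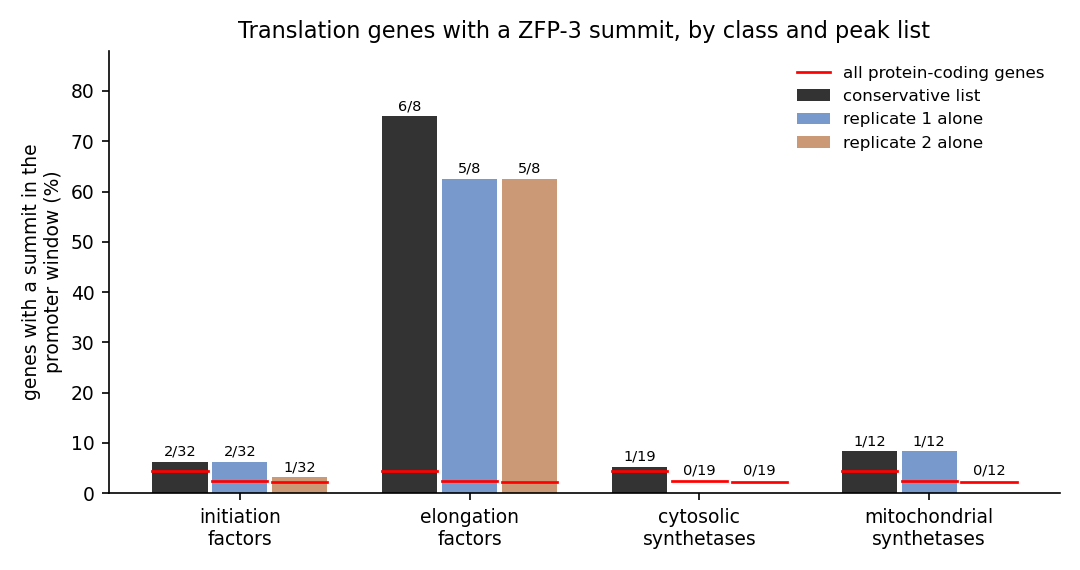
Share of genes with a summit in the promoter window (y axis, percent) for the 4 classes in the conservative list and in the thresholded list of each replicate, with the counts above the bars and a red line at the share of all protein-coding genes in that list. Elongation factors reach 6 of 8 in the conservative list and 5 of 8 in each single library, and the other classes stay at or below 8.33%.

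The reference sequences under 5 of the 6 elongation factor summits are shown because elongation factors carry the difference between the classes. Each runs 5′ to 3′ on the strand of the named gene and spans 81 bp centred on the summit, in RefSeq's WBcel235 assembly. Capitals mark GCAGGCA or CGCAAA on either strand. No other word of their lengths was in more of the 10 member windows.
iff-2, chrII:8561408-8561488, minus strand: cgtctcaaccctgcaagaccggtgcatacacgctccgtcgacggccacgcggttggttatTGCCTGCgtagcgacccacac
eef-1A.1, chrIII:6972029-6972109, minus strand: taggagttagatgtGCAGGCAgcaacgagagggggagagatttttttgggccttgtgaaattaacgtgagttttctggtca
eef-1A.2, chrX:7823246-7823326, plus strand: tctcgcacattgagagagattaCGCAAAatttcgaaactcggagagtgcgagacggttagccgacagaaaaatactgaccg
eef-1B.1, chrIII:7973392-7973472, minus strand: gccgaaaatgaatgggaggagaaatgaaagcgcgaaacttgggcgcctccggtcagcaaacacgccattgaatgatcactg
eef-1G, chrV:10965633-10965713, plus strand: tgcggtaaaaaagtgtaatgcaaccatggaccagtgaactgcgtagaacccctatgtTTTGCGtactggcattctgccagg
No stretch of 7 letters is common to all 5 sequences, since the most frequent 7-mer was in 4 of the 10 member windows. Capitals are absent from the site of eef-1B.1.

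The strongest site among the 71 genes was that of iff-2, which encodes an eIF5A, a factor that helps ribosomes past difficult stretches of peptide. Its peak on chromosome II (8561347 to 8561531) had a signal of 308, at rank 54 of the list, and its summit lay in intergenic sequence at -81 bp. In the ranked lists of the single libraries, the peak had a signal of 172 and rank 50 of 43564 in replicate 1. In replicate 2 its signal was 148 and its rank 52 of 43966. The peak thus stood near the top of each list. The other eIF5A gene, iff-1, which is known for its role in the germ line, had no thresholded peak. Within its window the ranked lists held a peak of signal 21.4 (rank 13378) at -897 bp in replicate 1 and another of 15.8 (rank 23250) at -191 bp in replicate 2. The coding sequences of iff-1 and iff-2 share 78.7% of their 483 aligned bases, while the best local alignment of their upstream 1000 bp covered 12 bp.

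Both genes for eEF1A, the GTPase that brings charged tRNAs to the ribosome, were bound at like distances. The summit lay at -357 bp from eef-1A.1 on chromosome III (peak 6971901 to 6972236, signal 124, rank 392) and at -368 bp from eef-1A.2 on chromosome X (peak 7823118 to 7823453, signal 81.6, rank 1027). The eef-1A.1 peak had signals of 66.4 in replicate 1 and 70.1 in replicate 2, and passed the threshold in each library. At eef-1A.2 the ranked lists gave 41.0 and 36.8, which did not pass in either library alone. The eef-1A.1 site was the stronger of the pair in the conservative list and in each library. Their coding sequences are of 1389 bp each and identical at 94.0% of bases, so reads inside them could be split between the copies. The summits lie upstream of both, where the best local alignment of the 1000 bp covered 49 bp. Whether these 49 bp lie under the peaks, and how reads mapped there, was not tested.

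The summit near eef-1A.1 does not belong to that gene alone. It lay inside cel-mir-5549, a miRNA gene, and 184 bp upstream of rfc-4, which encodes a subunit of the clamp loader of DNA replication. The 5′ end of rfc-4 was the nearer, and eef-1A.1 was no longer counted when each summit was given to the nearest gene only. At eef-1A.2 no other protein-coding window held the summit, and the noncoding RNA gene R03G5.8 lay 99 bp away.

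The exchange factor eEF1B, which recharges eEF1A with GTP, had bound and unbound subunit genes. eef-1G, for the gamma subunit, had a peak on chromosome V (10965505 to 10965840) with a signal of 132 and rank 340, and its summit was at -46 bp. Its signals were 78.0 in replicate 1 and 61.5 in replicate 2, past the threshold in each. eef-1B.1, for a beta or delta subunit by RefSeq's product name, had a peak on chromosome III (7973264 to 7973599) with a signal of 114 and rank 485. Its summit also lay at -46 bp, inside the noncoding RNA gene F54H12.9, and its signals were 58.6 and 46.7. The related gene eef-1B.2 had no peak in its window in the ranked list of either library. The ranked list made from both libraries, with 106942 peaks, did have a summit there, as in the windows of 65 of the 71 members. The share of all protein-coding genes in that list is not given here. The nearest summit of the conservative list lay 2417 bp downstream of its 5′ end, with a signal of 112. The coding sequences of eef-1B.1 and eef-1B.2 share 70.8% of 626 aligned bases.

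eef-2, the gene for the GTPase that moves the ribosome along the mRNA, had its summit in its own 5′ UTR, at 4 bp. The peak on chromosome I (9163367 to 9163702) had a signal of 187 and rank 160. Its signals in the single libraries were 117 and 79.6, at ranks 120 and 237, and it passed the threshold in each. Among the 6 bound elongation factor genes the median signal was 128, against 94.6 for all 889 bound protein-coding genes, with quartiles of 74.6 and 135. These 6 signals ran from 81.6 to 308 and lie within the range of the bound genes at large.

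**Figure D2:**
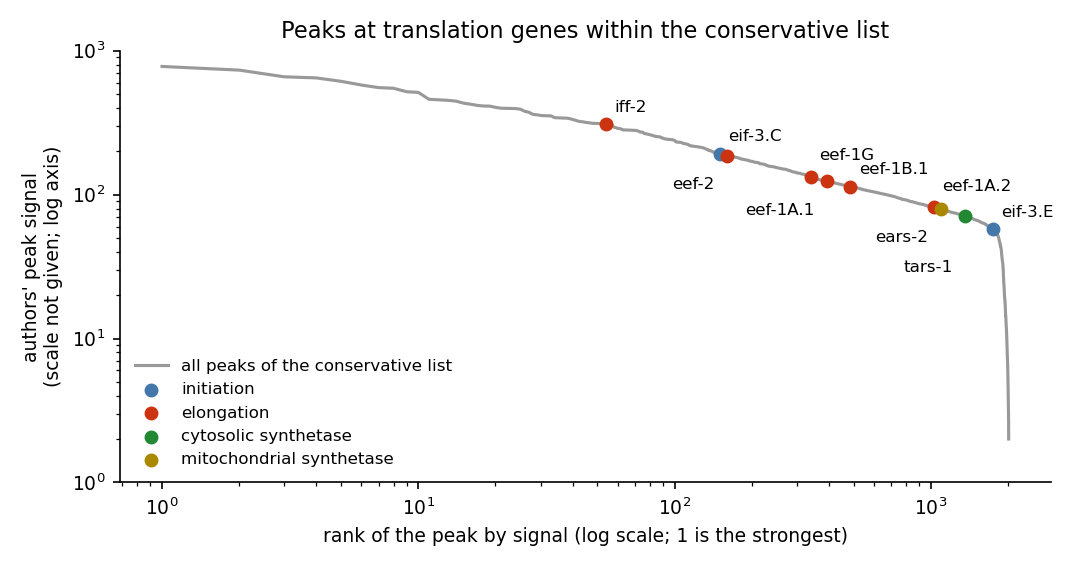
Signal of each peak of the conservative list (y axis, log scale, as the authors deposited it) against its rank (x axis, log scale), with the peaks at the 10 bound translation genes as coloured points. iff-2 stands at rank 54, eif-3.C and eef-2 at 150 and 160, and eif-3.E at 1747 near the weak end.

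Among initiation factors, the bound genes were 2 of the 11 subunit genes of eIF3, the scaffold on which the small ribosomal subunit assembles with the mRNA. eif-3.C had a peak on chromosome I (9979729 to 9980064) with a signal of 192 and rank 150. Its summit lay at -235 bp, in intergenic sequence 166 bp past the end of sys-1, which is on the same strand. Its signals were 110 in replicate 1 and 93.1 in replicate 2, past the threshold in each library, and no other protein-coding window held it. eif-3.E had a weaker site, with a signal of 57.3, rank 1747 and a summit at -227 bp (chromosome I, 10642340 to 10642675). Its signals of 35.5 and 36.2 did not pass in either library, and the other thresholded list of the series did not hold it. The pair thus differ in how firmly the lists hold them.

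The remaining initiation complexes had no bound gene. None of the 3 genes of eIF2, which carries the initiator tRNA, was bound, nor any of the 5 of its exchange factor eIF2B. None of the 7 genes of the cap-binding complex eIF4F was bound, namely ifg-1 for eIF4G, inf-1 for the helicase eIF4A and ife-1 to ife-5 for the cap-binding protein eIF4E. For ife-3, ife-4 and ife-5 the window held no ranked peak in either library. eif-1 and eif-1.A, whose products act in start codon choice, were not bound either. The other 4 symbols of the class, also unbound, include eif-4A3, which encodes a helicase of the exon junction complex, and eif-6, whose product keeps the ribosomal subunits apart.

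Synthetase genes were bound in 2 of 31 cases, 1 in each compartment, and both sites had signals below the list's median of 82.3. tars-1, for threonyl-tRNA synthetase, had a peak on chromosome II (11695480 to 11695815) with a signal of 71.4 and rank 1355. Its summit lay at 9 bp, in its 5′ UTR and inside an intron of kel-1. Signals were 29.4 in replicate 1 and 40.7 in replicate 2, and neither library held it past the threshold. The annotation has no second threonine gene of this symbol form. ears-2, for the mitochondrial glutamyl-tRNA synthetase, had a peak on chromosome IV (390319 to 390654) with a signal of 79.3, rank 1091 and a summit at -19 bp. Its signals were 46.6 and 39.5, and only the list of replicate 1 held it. Its cytosolic partner ears-1 had no ranked peak in its window in either library alone. The ranked list made from both libraries had a summit there, as it had at all 31 synthetase genes. No tRNA gene lay within 600 bp of any of the 10 member summits, and the nearest was 5039 bp away. The same distance was not counted over all peaks, so it describes these 10 sites only.

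Elongation factors stood above the other classes in each replicate alone. In the thresholded list of replicate 1, 8 members had a summit in the window, against 2.49% of all protein-coding genes, and in that of replicate 2, 6 had, against 2.30%. Elongation factors gave 5 of 8 in each: iff-2, eef-2, eef-1G, eef-1A.1 and eef-1B.1. The list of replicate 1 also held eif-3.J, 1 of the 11 eIF3 subunit genes among the members, which is described here because of this value. Its signal was 46.6 in replicate 1, past the threshold, and 23.5 in replicate 2, and the conservative list did not hold it. Of the 10 members of the conservative list, 6 overlapped a thresholded peak in both libraries, 1 in 1 library and 3 in neither, so 60.0% were found in both, against 36.7% of all 889 bound protein-coding genes. By its name the conservative list needs agreement of the replicates, so the overlap is no independent support. The series has another thresholded list, of 1458 peaks and so shorter than the conservative list of 2010, in which 9 members had a summit in the window. Its background was 3.44%. It lacked eif-3.E.

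**Figure D3:**
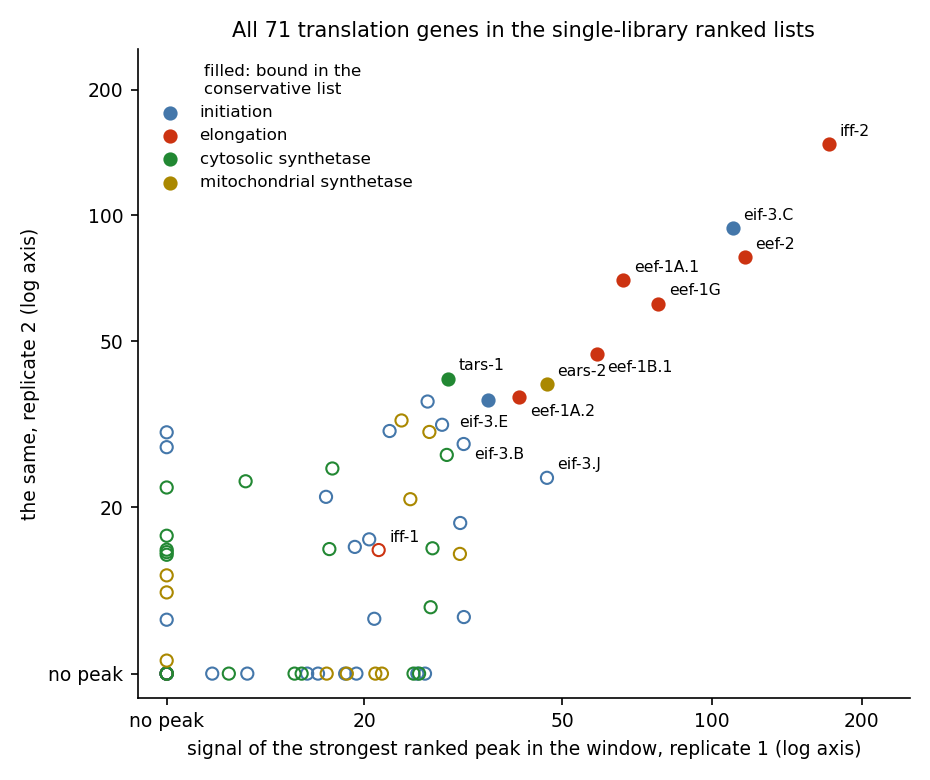
Signal of the strongest ranked peak in the window of each of the 71 genes in replicate 1 (x axis) and replicate 2 (y axis), both on log scales, with genes without a ranked peak placed at "no peak" and filled points for genes bound in the conservative list. The 10 bound genes have signals of at least 29.4 in replicate 1 and 36.2 in replicate 2, and the 11 genes with no peak in either library coincide in the lower left corner. The peak was taken in each replicate by itself, so both values of a gene need not come from the same site.

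Below the threshold, the ranked lists held weak peaks at many unbound members. Of the 61 unbound genes, 22 had a summit in the window in both ranked lists, 28 in 1 and 11 in neither. Each library's strongest summit in the window was taken by itself, so a pair of values need not come from the same site. Over all 71 genes 32 had one in both, or 45.1%, against 24.3% of all protein-coding genes. Both shares include bound genes, among them the 10 bound members. The share over unbound protein-coding genes alone was not counted, so the 22 of 61 have no background here. With the tenth of each ranked list that had the highest signal, 10 of 71 had a summit in both libraries, against 4.44% of all genes. These were the 6 bound elongation factor genes, eif-3.B, eif-3.C, eif-3.E and ears-2. Judged by the poorer of its ranks, eif-3.B, another eIF3 subunit gene, came highest among unbound genes that passed in no library, with signals of 31.7 and 28.4 at ranks 3380 and 4128. In the same order eif-2alpha followed with 28.6 and 31.5, and the next initiation factor gene was eif-1.A with 26.8 and 35.8. eif-2alpha encodes the eIF2 subunit that stress kinases phosphorylate. Of the cytosolic synthetases kars-1, for lysyl-tRNA synthetase, came closest with 29.3 and 26.7, ahead of aars-2 (17.2 and 24.8) and wars-1 (27.4 and 16.0). Of the mitochondrial ones these were vars-1 (27.0 and 30.3), fars-2 (23.7 and 32.3) and yars-2 (24.7 and 20.9). The summits of kars-1 lay apart, at -843 bp in replicate 1 and -422 bp in replicate 2. Those of wars-1 lay at 108 and -695 bp, while those of aars-2 lay at -535 and -539 bp. No unbound gene exceeded 46.6 in replicate 1 or 35.8 in replicate 2.

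The window's edges decided few members. The bound gene with the summit farthest upstream was eef-1A.2 at -368 bp, and that farthest downstream was tars-1 at 9 bp. Just outside the window lay eif-3.G, an eIF3 subunit gene, with a summit at -1032 bp (signal 118), and iars-2, a mitochondrial isoleucyl-tRNA synthetase gene, with one at -1072 bp (signal 32.1). The next was eif-6 at -2006 bp (signal 195).

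Bound translation genes had their summits close to the 5′ end and often in the window of a head to head gene as well. The median distance was -63.5 bp in the 10 genes, with quartiles of -233 and -25.75, against -266 bp over all 889 bound protein-coding genes, with quartiles of -491 and -125. In 8 of the 10 genes the summit also lay in the window of a gene on the opposite strand that is transcribed away from it. At eef-2 and tars-1, with summits at 4 and 9 bp, it lay in the member's own 5′ UTR and not between the genes. Over all bound protein-coding genes, 42.0% shared their summit with another window, of a gene on either strand. Head to head neighbours within 1500 bp were present at 37 of the 71 translation genes (52.1%), whether bound or not, and at 23.4% of all protein-coding genes. By class they were present at 6 of the 8 elongation factor genes, 16 of 32 initiation factor genes, 12 of 19 cytosolic and 3 of 12 mitochondrial synthetase genes. Among all 889 bound protein-coding genes 41.3% had such a neighbour. Whether this arrangement bears on binding was not tested.

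**Figure D4:**
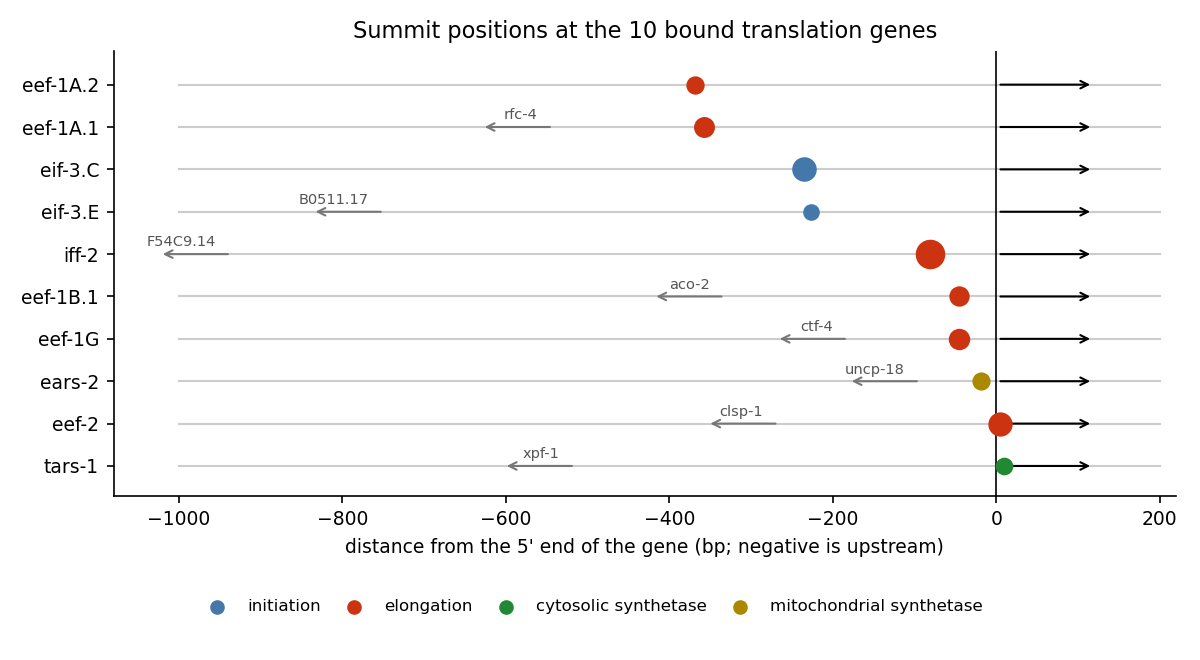
Summit positions at the 10 bound genes (x axis, bp from the annotated 5′ end, negative upstream), with the area of a point growing with the authors' signal, a black arrow for the named gene and a grey arrow at the 5′ end of the head to head gene whose window holds the same summit (arrows give direction, not length). Summits run from -368 bp at eef-1A.2 to 9 bp at tars-1, and eif-3.C and eef-1A.2 share theirs with no other window.

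The genes that share these summits are aco-2 with eef-1B.1, ctf-4 with eef-1G, clsp-1 with eef-2, rfc-4 with eef-1A.1, F54C9.14 with iff-2, B0511.17 with eif-3.E, xpf-1 with tars-1 and uncp-18 with ears-2. For aco-2, the mitochondrial aconitase gene, the 5′ end was 285 bp from the summit, and for ctf-4 it was 134 bp. For clsp-1 it was 269 bp, for uncp-18 73 bp and for xpf-1 523 bp. The peaks do not tell which gene of a pair the protein acts on, and the translation gene had the nearer 5′ end in all of these pairs except eef-1A.1 and rfc-4.

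The sites at translation genes had a higher median GC content than all peaks. In the 101 bp around the summit GC content had a median of 53.5% over the 10 sites, from 43.6% at eef-1A.1 to 60.4% at ears-2. Over all 2010 summits the median was 44.6%, with quartiles of 37.6% and 51.5%, and in the 101 bp upstream of all protein-coding genes it was 32.7%. The 2010 summits include those outside promoter windows. GC content was not counted over the summits at the 889 bound protein-coding genes, so whether these sites differ from them was not tested. AGACGCAG, which an earlier look at all peaks had singled out, was in none of the 10 windows on either strand, against 4.63% of all summits and 1.26% of upstream windows of the same length. Its first letters, AGACGC, were in 1 of the 10, that of ears-2, against 9.25% and 2.51%. With 10 windows, counts of 0 and 1 do not set these sites apart from the whole list. AGACGC is contained in AGACGCAG, so these counts overlap.

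Letters shared by the 10 windows were then counted on both strands, and were chosen for being shared. Where words were in equally many of these windows, the one in the fewest windows of all summits was taken. The shares of all summits were thus part of the choice among tied words. CGCAAA was in 6 of the 10 windows, those of eef-2, eef-1G, eef-1A.2, eif-3.C, eif-3.E and ears-2, and no 6-mer was in more. All summits held it in 7.81% of cases and upstream windows in 4.81%. GCAGGCA was in 4 of the 10 windows, at iff-2, eef-1A.1, eef-2 and eif-3.E, and no 7-mer was in more. It was in 25 of the 2010 summit windows (1.24%) and in 0.491% of upstream windows. Neither contains the other, and both occurred at eef-2 and eif-3.E. They were picked from 689 6-mers and 844 7-mers present in these windows, so the counts only describe the 10 windows and carry no test. The printed sequences show CGCAAA at eef-1A.2 and eef-1G and GCAGGCA at iff-2 and eef-1A.1, and the other windows with these letters are not printed.

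Further genes of translation and its control, which the symbol rule misses, were bound in 4 of 26 cases, beside the 4.45% of all protein-coding genes. drr-2, which encodes an eIF4H, had a peak of signal 359 whose summit, at -158 bp, was also in the window of set-16. ifet-1, for the 4E-T protein that represses translation with eIF4E, had 280 at -496 bp, in a window shared with the ribosomal protein gene rps-1. Both had a summit in the window in each single-library list. efk-1, for the kinase that inhibits eEF2, had a signal of 21.4 at 111 bp, and fars-3, for a subunit of the cytosolic phenylalanyl-tRNA synthetase, had 54.2 at -174 bp. These weaker sites were in neither single-library list. The release factor genes erfa-1 and erfa-3, the poly(A)-binding protein genes pab-1 and pab-2, the eIF2 kinase genes gcn-2 and pek-1, and the TOR pathway genes let-363, daf-15, raga-1 and rsks-1 were not bound. The mitochondrial elongation factor genes tufm-1, tufm-2, gfm-1 and tsfm-1 were not bound either, unlike most of the cytosolic set.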

How the data were processed

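The authors' deposited peak lists use the ce11 build. Notes deposited with the samples say that single-library lists derive from that library's alignments and series lists from those of the pair, together with 1 shared extra file. The signal and the score in each list are the authors' deposited values. The score is a scaled irreproducible discovery rate (IDR), at least 830 in thresholded lists, a rate of at most 0.01. Aligner and peak caller: not given in the sources used here.

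All 2010 conservative peaks were found in a ranked list of the series. Genes came from Ensembl release 115 and sequence from RefSeq's WBcel235, whose chromosomes hold every peak and gene. Members, gene lists and letters were chosen with earlier results of these data known, so shares stand beside the background with no test. Window counts were tested on simulated data: 200 of 200 summits were placed as made. Alternatives were other lists, windows, 5′ ends and gene assignments. Named genes were all bound members, their paralogs or partners, up to 3 unbound members per class with the strongest ranked peaks in both libraries, those nearest outside the window, and bound genes of the further list (other genes named complete a complex or that list). Of 30 symbols in that list, 26 were in the annotation. Python 3.11.15, pysam 0.24.0 and Biopython 1.88 were used.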

Additional observations from a re-analysis of the deposited data

How the results depend on the processing

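The 6 bound elongation factor genes numbered 5 or 6 under all 10 alternatives run. The total of 10 bound members was 10 with a window of 500 bp upstream and 100 bp downstream, 10 with the 5′ end of any transcript, and 9 in the other series list and with summits given to the nearest gene only. It became 12 with the longer window (2000 bp and 500 bp) and with any base of a peak in the window, where eif-3.G and iars-2 were added and mitochondrial synthetases rose to 2. From the single-library lists (without replicate 1 or without replicate 2) the total was 6 to 8, initiation factors 1 to 2, elongation factors 5 to 5, cytosolic synthetases 0 to 0 and mitochondrial ones 0 to 1. Among conservative peaks with at least the median signal the total was 6, with 1 initiation factor, 0 cytosolic and 0 mitochondrial synthetases. The other series list gave 1 initiation factor. With eIF5A counted as initiation, initiation had 3 and elongation 5. Presence by summits within 100 bp gave 7 members in replicate 1 and 6 in replicate 2, as overlap did. The lists hold fewer peaks or other ones, and no cause beyond that was tested. No paired analysis was possible because there is 1 group. Depth is unknown, so a gene without a peak is not shown to lack binding.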

Other observations

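The peaks of eif-3.C and eef-2 were close in strength in the conservative list (192 and 187). In replicate 1 eef-2 was the stronger, with 117 against 110, and in replicate 2 eif-3.C was, with 93.1 against 79.6, so their order was not stable between the libraries.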
